A study of Mus musculus with 15 samples.

Results

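Cell-cell contacts of the uterine epithelium were described through 91 genes for claudins, occludin and tight junction scaffolds, junctional adhesion molecules and nectins, classical cadherins, desmosomal proteins, connexins, protocadherins and keratins. The members were chosen by gene symbol among all genes listed in the wild-type or E-OEX tables, without the endothelial cadherin Cdh5. They are 91 of 28269 genes listed in any table of the series: 14 claudins, 3 tight junction scaffolds or occludin, 4 junctional adhesion molecules or nectins, 7 cadherins, 5 desmosomal genes, 21 keratins, 11 connexins and 26 protocadherins. The study sequenced RNA from mouse uterine epithelium on day 4, with 3 libraries in each of 5 groups. Wild-type luminal epithelium (LE) lines the uterine cavity, and wild-type glandular epithelium (GE) forms the glands. E-OEX LE and E-OEX GE are the same 2 epithelia from mice labelled as overexpressing Notch1, and U-OEx LE is luminal epithelium from a further Notch1 overexpression group. The labels do not say what E-OEX and U-OEx stand for, and the promoter or Cre that drives the transgene, the strain and the animals' age are not given in the sources used here. Nothing in the labels says whether replicates came from separate animals, so p-values measure only the spread between these libraries, which may be technical.

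Epithelial cells hold together through several kinds of contact. Claudins and occludin seal the tight junction and set which ions pass between cells, and scaffold proteins such as Tjp1 anchor them inside the cell. E-cadherin (Cdh1) and nectins form the adherens junction, desmogleins, desmocollins and plakophilins form desmosomes that attach keratin filaments, and connexins form gap junction channels. Protocadherins are cadherin relatives known mainly from neural and mesenchymal cells. The luminal epithelium is remodelled around the time of implantation, when adherens and tight junction proteins are redistributed, and Notch receptors act through the DNA-binding protein RBPJ and the Hes and Hey repressors.

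Values are scaled read counts as deposited, in which each value is a whole number of reads times 1 factor per library. There are 6414 genes listed for wild type and 4903 for E-OEX, nearly all with an at least doubled or halved mean between GE and LE, whereas 27946 are listed for U-OEx. Of the members, 67 were listed in the wild-type tables, 68 in the E-OEX tables, 44 in both and 89 in the U-OEx tables. A member outside a list was not analysed there. The listed genes held 3818041 to 4797424 reads in a wild-type library, 1980800 to 3494859 in E-OEX and 13541644 to 14981505 in U-OEx, and for wild type and E-OEX these are sums over selected lists, not depths. Notch1 itself was listed only for U-OEx LE, at 2913, 3524 and 2789, so the genotype labels were not checked on it.

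The wild-type epithelia carried the markers of their labels. The sum of 6 luminal markers listed in all tables was 32791 to 60716 in wild-type LE and 826 to 1356 in wild-type GE, and that of 7 glandular markers was 49.7 to 102 and 23799 to 32026. In E-OEX GE the glandular sum was lower, at 5886 to 9168, and the luminal sum was 2064 to 8790. E-OEX LE had luminal sums of 31839 to 52868 and glandular sums of 215 to 1321, and U-OEx LE had 70134 to 137367 and 1040 to 1441. The GE libraries also held markers of other cells. The sum of 8 of 11 stromal markers (a 12-gene list without Vim, which many cells express) was 225 to 5741 in wild-type LE, 30497 to 96223 in wild-type GE, 310 to 1683 in E-OEX LE, 72988 to 84354 in E-OEX GE and 281 to 1031 in U-OEx LE. Smooth muscle and pericyte markers (8 of 9 listed) summed to 5438 to 8975 in wild-type GE, 23172 to 23353 in E-OEX GE and at most 480 in any LE library. The sum of 7 endothelial markers was 2987 to 5224 in wild-type GE, 3694 to 10875 in E-OEX GE and 115 to 355 over the LE libraries. Wild-type LE replicate 2 stood apart, with the highest stromal sum (5741) and the highest sum of 4 mesothelial markers (3565) of the LE libraries. Several members were high in it too: Cldn10 stood at 1046 beside 37.3 and 161 in the other wild-type LE libraries, Cldn15 at 502 beside 23.8 and 137, and Cdh11, a cadherin of mesenchymal cells, at 323 beside 19.7 and 130. The part of other cells in these values was not tested.

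**Figure D1:**
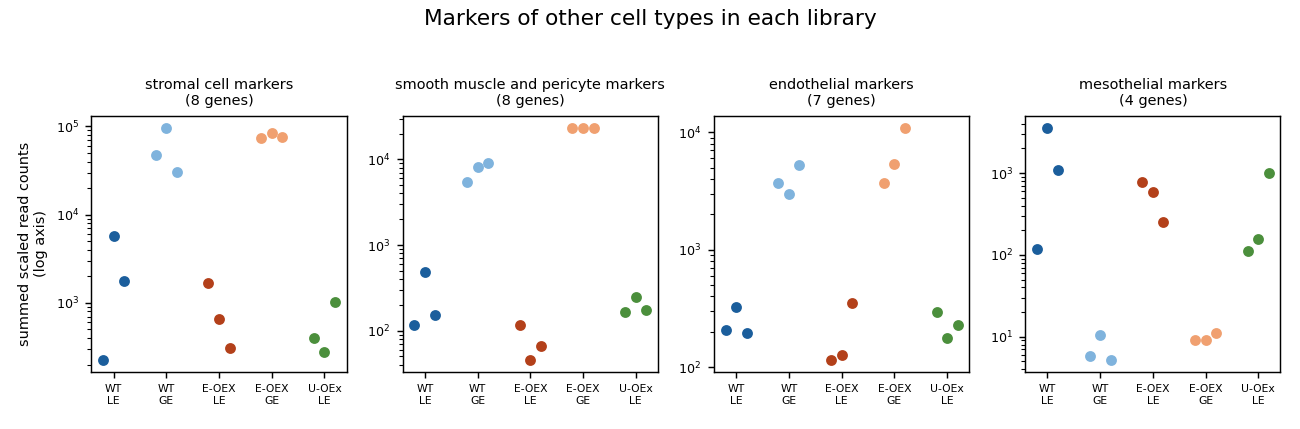
Summed scaled read counts of 4 marker lists in each library (points, log axis, 3 libraries per group, WT for wild type, genes listed in all tables only). Stromal, smooth muscle and endothelial sums lie higher in the GE libraries, at 30497 or more, 5438 or more and 2987 or more, and wild-type LE replicate 2 has a mesothelial sum of 3565.

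Promoter sequences are shown for 4 members whose levels differed between E-OEX and wild type (below), because the genotype concerns a transcription pathway. Each is the stretch of 250 bases before a RefSeq start (GRCm38.p6), read 5′ to 3′ on the gene's strand. RefSeq windows were found for 42 of the 91 members, 51 windows in all. Capitals mark TGGGAA, the core of the RBPJ site, or CACGNG, a form of the site bound by Hes and Hey proteins, each searched on both strands after the results were known. The motifs can overlap in the letters TG.
Krt13 (chr11:100121567-100121816, minus strand): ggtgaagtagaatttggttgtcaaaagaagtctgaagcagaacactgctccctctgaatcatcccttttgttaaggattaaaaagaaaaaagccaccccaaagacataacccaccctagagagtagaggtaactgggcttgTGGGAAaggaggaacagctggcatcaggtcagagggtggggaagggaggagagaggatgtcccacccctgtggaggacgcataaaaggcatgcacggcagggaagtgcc
Krt23 (chr11:99493121-99493370, minus strand): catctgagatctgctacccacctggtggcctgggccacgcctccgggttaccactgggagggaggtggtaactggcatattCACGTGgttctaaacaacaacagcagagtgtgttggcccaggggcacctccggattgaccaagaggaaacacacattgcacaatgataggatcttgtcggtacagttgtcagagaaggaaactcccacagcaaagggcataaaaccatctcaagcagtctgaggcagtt
Cldn1 (chr16:26371840-26372089, minus strand): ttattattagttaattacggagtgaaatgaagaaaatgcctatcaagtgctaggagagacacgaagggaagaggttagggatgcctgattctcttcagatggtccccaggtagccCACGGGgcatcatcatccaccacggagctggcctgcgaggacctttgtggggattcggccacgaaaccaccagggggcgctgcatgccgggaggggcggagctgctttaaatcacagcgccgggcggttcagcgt
Cldn2 (chrX:139800558-139800807, plus strand): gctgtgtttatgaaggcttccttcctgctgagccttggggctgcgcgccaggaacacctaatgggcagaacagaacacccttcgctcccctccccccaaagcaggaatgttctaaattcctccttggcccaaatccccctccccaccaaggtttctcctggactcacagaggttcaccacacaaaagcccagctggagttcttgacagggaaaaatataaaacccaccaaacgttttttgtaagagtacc
The Krt13 window holds 1 TGGGAA, the windows of Krt23 and Cldn1 hold 1 CACGNG each, and the Cldn2 window holds neither. A second Krt13 window in the table (chr11:100120578-100120827) also holds neither. TGGGAA occurs in 12 of the 51 member windows (23.5%) and in 21.6% of all windows of that length. CACGNG occurs in 11 member windows (21.6%) and in 23.5% of all windows. These matches describe the sequence and are not evidence of binding.

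The glandular against luminal contrast chose the listed genes, so it is described without a test. In wild type, 34 of 67 members were higher in GE and 33 in LE, where 57.0% of all listed genes were higher in GE. In E-OEX, 46 of 68 were higher in GE, where 63.9% of all listed genes were. All 44 members listed in both had the same direction in both genotypes, 29 higher in GE and 15 in LE. How many of all 2933 genes listed in both kept their direction was not counted, so this is not read as a trait of the members. The protocadherins lay almost wholly on the glandular side, 11 of 12 in wild type and 23 of 23 in E-OEX, beside the stromal marker sums given above, whose part in this was not tested. Keratins leaned to the lumen, with 10 of 16 higher in LE in each genotype. In wild type, 4 of 5 desmosomal genes were also higher in LE.

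The widest glandular excess belonged to Krt83, a hair-type keratin. It had 0, 2.05 and 0 scaled reads in the 3 wild-type LE libraries and 5195, 3081 and 4764 in wild-type GE. The ratio was 6173, with a counting interval (95%, exact, counting error only) from 1708 to 50970. Krt23, a type I keratin, followed with 3.11, 28.7 and 10.1 in wild-type LE and 6897, 3301 and 5456 in wild-type GE, a log2 ratio of group means of 8.55. Nearly all reads of both in wild type thus came from the GE libraries. Among the protocadherins, Pcdh8 had 0, 1.02 and 0 in wild-type LE against 111, 196 and 64.9 in wild-type GE. Pcdh11x had 10.4, 3.07 and 1.12 against 360, 299 and 406, a log2 ratio of 6.19. Pcdh12, known from endothelium, had 0, 2.05 and 0 against 52.6, 37.9 and 49.3.

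On the luminal side of wild type, the desmosomal cadherin Dsg3 had 187, 187 and 170 in LE and 3.89, 0 and 1.73 in GE, a log2 ratio of -6.60. Krt17, a keratin of basal and injured epithelium, had 307, 173 and 139 against 0, 7.58 and 2.60 (-5.92). Krt12, best known from the cornea, was without a read in wild-type GE and at 75.6, 45.1 and 22.4 in wild-type LE, at least 17.1-fold higher against 3 reads per library. Krt35 had 39.4, 16.4 and 24.6 in LE and a single read in the 3 GE libraries. The LE and GE values of these members did not overlap.

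In E-OEX the order at the glandular end was different. Cldn5, a claudin of blood vessels, came first with 5.48, 3.63 and 2.16 in LE and 416, 493 and 1175 in GE, a log2 ratio of 7.53. Gjc1, a connexin of smooth muscle and vessels, had 1.83, 2.72 and 4.32 against 286, 420 and 453 (7.03). Krt83 had 21.0, 43.6 and 5.40 against 4366, 2653 and 2214 (7.04), and Krt23 50.2, 25.4 and 11.9 against 1104, 1642 and 1372 (5.56). Cldn5 and Gjc1 were thus high in the same GE libraries that held the endothelial and smooth muscle marker sums, and the part of those cells was not tested. The largest luminal ratios with over 3 reads in both groups were those of Cldn1 (-4.33), the desmosomal plakophilin Pkp1 (-4.17) and Dsg3 (-3.97).

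**Figure D2:**
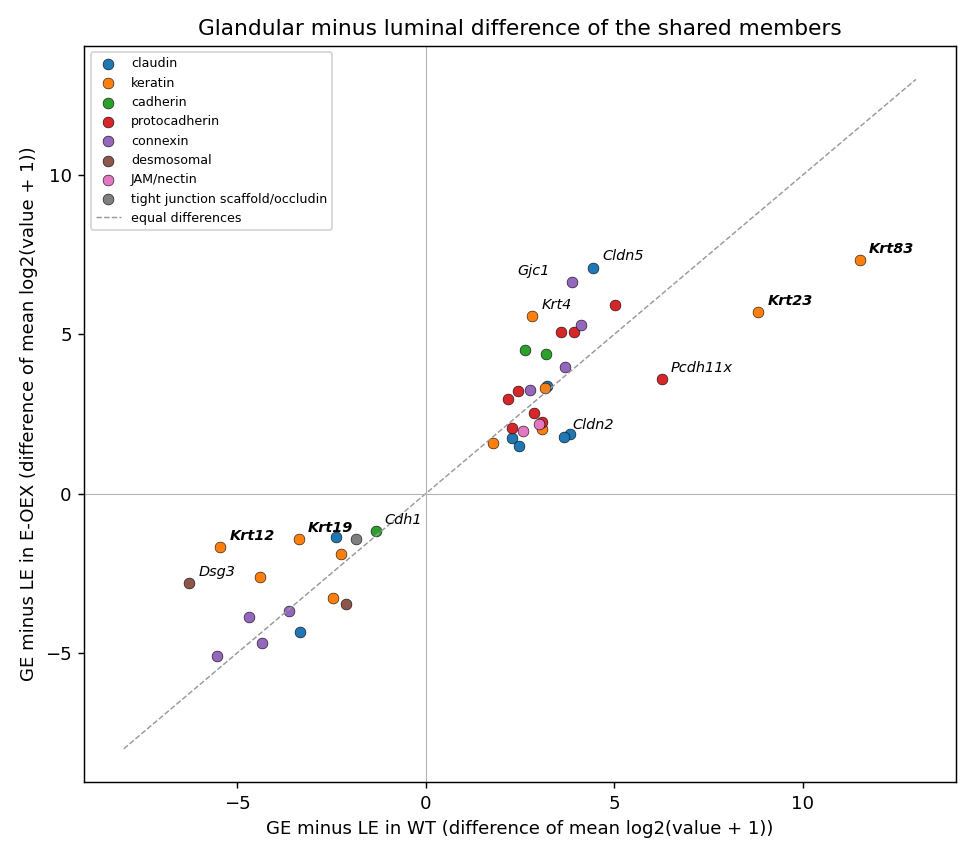
Difference between GE and LE in mean log2(scaled read count + 1) for the 44 members listed in both genotypes, wild type on the x axis and E-OEX on the y axis, 1 point per member, coloured by family; the dashed line marks equal differences and bold names the members with an interaction. All points lie in the lower left (15 members) or upper right (29 members), and Krt83 and Krt23 lie farthest below the line on the glandular side. The listed genes were chosen on this contrast, and the share of all genes with the same direction was not counted.

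Levels of different genes can be set side by side only per length, here as the mean scaled read count per kb of the longest annotated transcript. On that scale the highest members in wild-type LE were Cldn3, a sealing claudin, at 25252, Krt19, a keratin of simple epithelia, at 11532, Cldn7 at 8435, the junctional adhesion molecule Jam2 at 5772 and E-cadherin at 4603. In U-OEx LE, Cldn3 stood at 3158 per kb and Jam2 at 48.5, while Krt19 stood at 12800 and Cldn7 at 4262. In wild-type GE the order was Cldn3 (9055), Krt23 (3334), Krt83 (2474) and E-cadherin (1845). In E-OEX GE it was Krt19 (6156), Cldn4 (3255), Cldn10 (1919) and Cldn7 (1848). Each order covers only the members listed for that genotype. Cldn3 and Jam2 were not listed for E-OEX, and Cldn4 was not listed for wild type.

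Genotypes were compared with limma on log2(value + 1) after the recovered reads of shared genes had been rescaled together, with p-values adjusted over all genes tested and a threshold of 0.05. In luminal epithelium, E-OEX differed from wild type in 6 of 41 members tested, 5 higher and 1 lower, where 10.7% of all genes passed (5.12% higher, 5.54% lower). In glandular epithelium 7 of 42 passed, 5 higher and 2 lower, where 23.5% of all genes passed (9.72% higher, 13.8% lower). U-OEx LE differed from wild-type LE in 27 of 61 members, 12 higher and 15 lower, where 56.9% of all genes passed (29.1% higher, 27.8% lower). U-OEx LE differed from E-OEX LE in 4 of 60, 1 higher and 3 lower, where 15.0% of all genes passed (6.97% higher, 8.05% lower). The members thus passed no more often than all genes did in 3 of these comparisons, and in 14.6% against 10.7% in the first. The groups did not overlap for 14 of 41 members in E-OEX LE (29.9% of all genes), 16 of 42 in E-OEX GE (40.5%), 27 of 61 in U-OEx LE (63.8%) and 21 of 60 between U-OEx and E-OEX LE (38.2%). The median log2 fold change of the members was 0.54 in E-OEX LE (-0.09 over all genes), 0.36 in E-OEX GE (0.05), 0.25 in U-OEx LE (0.09) and -0.46 for U-OEx against E-OEX LE (0.06). In all, 37 members passed in at least 1 of 5 tests, 49 were tested and passed in none, and 5 were tested in none. U-OEx LE and E-OEX LE were both set against the same wild-type LE libraries. In bulk RNA, fewer cells of a type and less RNA per cell cannot be told apart.

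The count in E-OEX LE rested on single libraries. Without E-OEX LE replicate 2 no member passed in limma (10 had an unadjusted p under 0.05, and edgeR and DESeq2 were not run without it), without wild-type LE replicate 3 it was 1, and without E-OEX LE replicate 1 it was 2. With no filter on low values it was also 2. The count without wild-type LE replicate 2, the library with stromal and mesothelial markers, was 5 in E-OEX LE and 29 in U-OEx LE. On the deposited scale the median of all genes moved from 0.05 to 0.50 in GE and from -0.09 to 0.08 in LE. The share of calls that were higher moved from 41.3% to 71.6% in GE and from 48.0% to 58.6% in LE, so the fold changes below are relative to the shared genes.

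**Figure D3:**
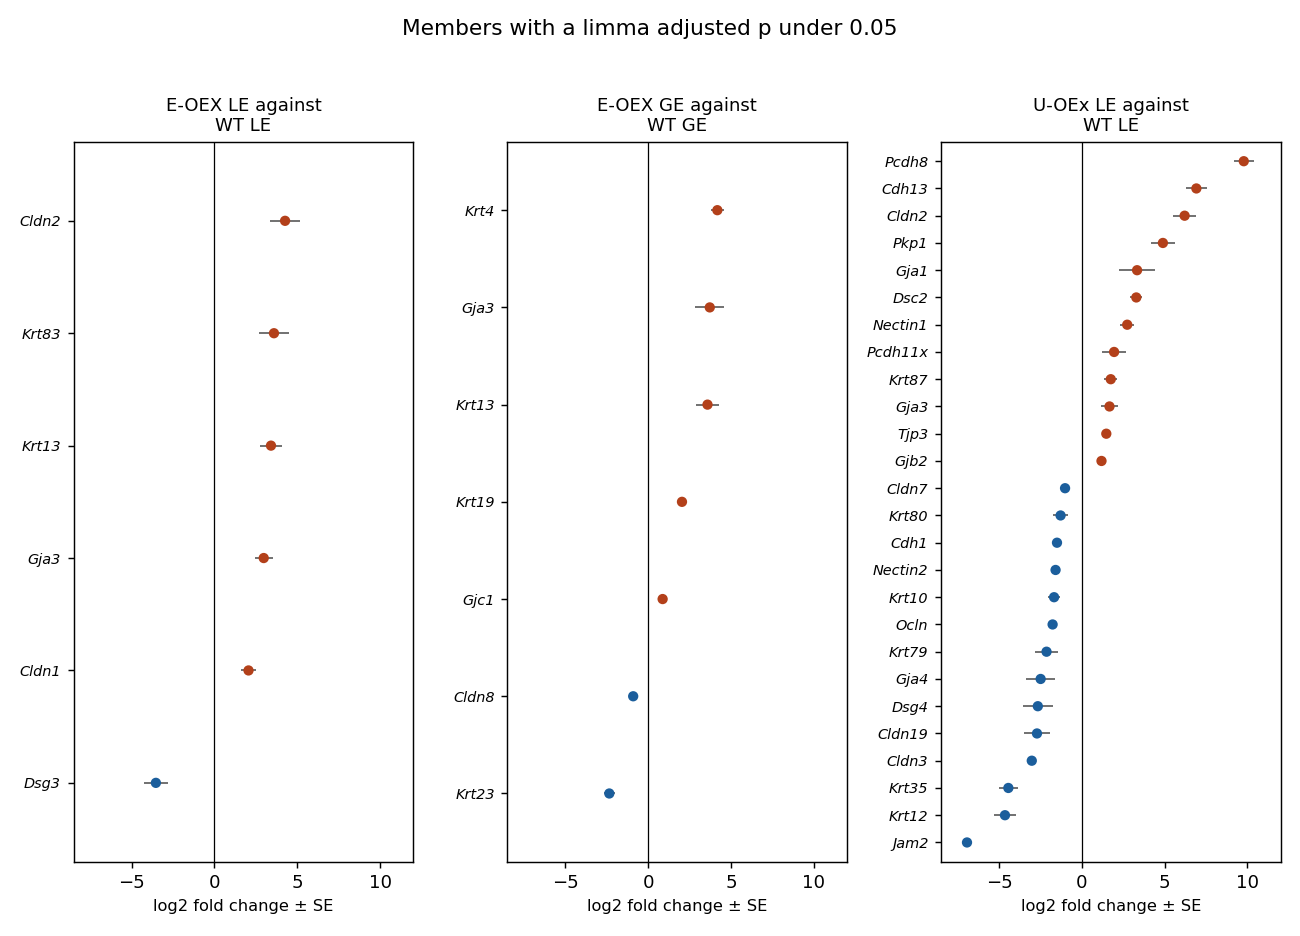
Log2 fold changes (points) with standard errors (bars) of members with a limma adjusted p under 0.05 in 3 genotype comparisons (3 libraries per group), red higher and blue lower than wild type. All 6 and 7 called members are shown for E-OEX LE and E-OEX GE and 26 of 27 for U-OEx LE (1 is not reported here); Pcdh8 in U-OEx LE has the highest value (9.78) and Jam2 in U-OEx LE the lowest (-6.93).

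Among the tight junction genes, Jam2 (chr16:84774123-84825928), an immunoglobulin-like adhesion molecule, showed the largest fall of any member in these 4 comparisons. It had 27517, 24882 and 23278 scaled reads in wild-type LE, 3947, 2774 and 2717 in wild-type GE and 168, 268 and 200 in U-OEx LE. All U-OEx libraries thus lay far below both wild-type epithelia. The log2 fold change was -6.93 (SE 0.24, limma adjusted p = 2.6e-06). Jam2 was not listed in the E-OEX tables.

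Cldn3 (chr5:134986214-134987472) had 32828, 29072 and 33478 in wild-type LE, 11639, 11028 and 11535 in wild-type GE and 4008, 4245 and 3674 in U-OEx LE. The U-OEx values did not overlap with wild-type LE, and the log2 fold change was -3.02 (SE 0.19, limma adjusted p = 1.47e-05). Cldn7, which is often found along the basolateral membrane, fell less (-1.01), and in E-OEX LE its change was -1.05 with a limma adjusted p of 0.11. Occludin (Ocln, -1.76) also fell in U-OEx LE, while the scaffold Tjp3 rose (1.48). Tjp3 had 4001, 2633 and 3189 in wild-type LE and 9398, 8627 and 9420 in U-OEx LE. The tight junction genes of U-OEx LE therefore moved in both directions, and of 10 claudins tested 1 was higher and 3 were lower, where 29.1% of all genes were higher and 27.8% lower.

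The claudin that rose was Cldn2 (chrX:139800828-139811386), which forms a cation channel in leaky epithelia. Wild-type LE had 0, 5.12 and 1.12 scaled reads, E-OEX LE 146, 23.6 and 30.2, and U-OEx LE 244, 123 and 164. Every overexpressing LE library lay above every wild-type LE library. The log2 fold changes were 4.26 in E-OEX LE (SE 0.92, limma adjusted p = 0.0202) and 6.21 in U-OEx LE (SE 0.70, limma adjusted p = 0.000178). In GE it had 51.6, 26.5 and 17.3 in wild type and 530, 86.2 and 100 in E-OEX, a log2 fold change of 2.03 with a limma adjusted p of 0.0661.

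Cldn1 (chr16:26356642-26371841), a barrier claudin, had 2079, 1905 and 2420 in E-OEX LE, against wild-type LE values of 517, 686 and 262, with no overlap. It rose by 2.06 on the log2 scale (SE 0.45, limma adjusted p = 0.0202). U-OEx LE replicates spread from 582 to 2167, and the change there was 1.27 with a limma adjusted p of 0.0702. In GE its values were 51.6, 50.2 and 32.9 in wild type and 111, 85.1 and 123 in E-OEX (0.78, limma adjusted p = 0.118). Without E-OEX LE replicate 1, without E-OEX LE replicate 2 or without wild-type LE replicate 3, neither Cldn1 nor Cldn2 passed in E-OEX LE.

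Cldn8, a claudin known from kidney tubules, fell in E-OEX GE from 1279, 1238 and 1228 to 824, 934 and 1015, a log2 change of -0.90 (SE 0.21, limma adjusted p = 0.012). It did not pass on the deposited scale, in 1 fit over 4 groups or without wild-type GE replicate 1. The renal claudin Cldn19 had 4.14, 24.6 and 6.71 in wild-type LE and 2.76, 0 and 0 in U-OEx LE. That is a ratio of 13.2 with a counting interval from 4.15 to 67.1 (log2 fold change -2.71, limma adjusted p = 0.02), and it rests on 3 reads in U-OEx LE and passed in 3 of 6 fits with a library left out.

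**Figure D4:**
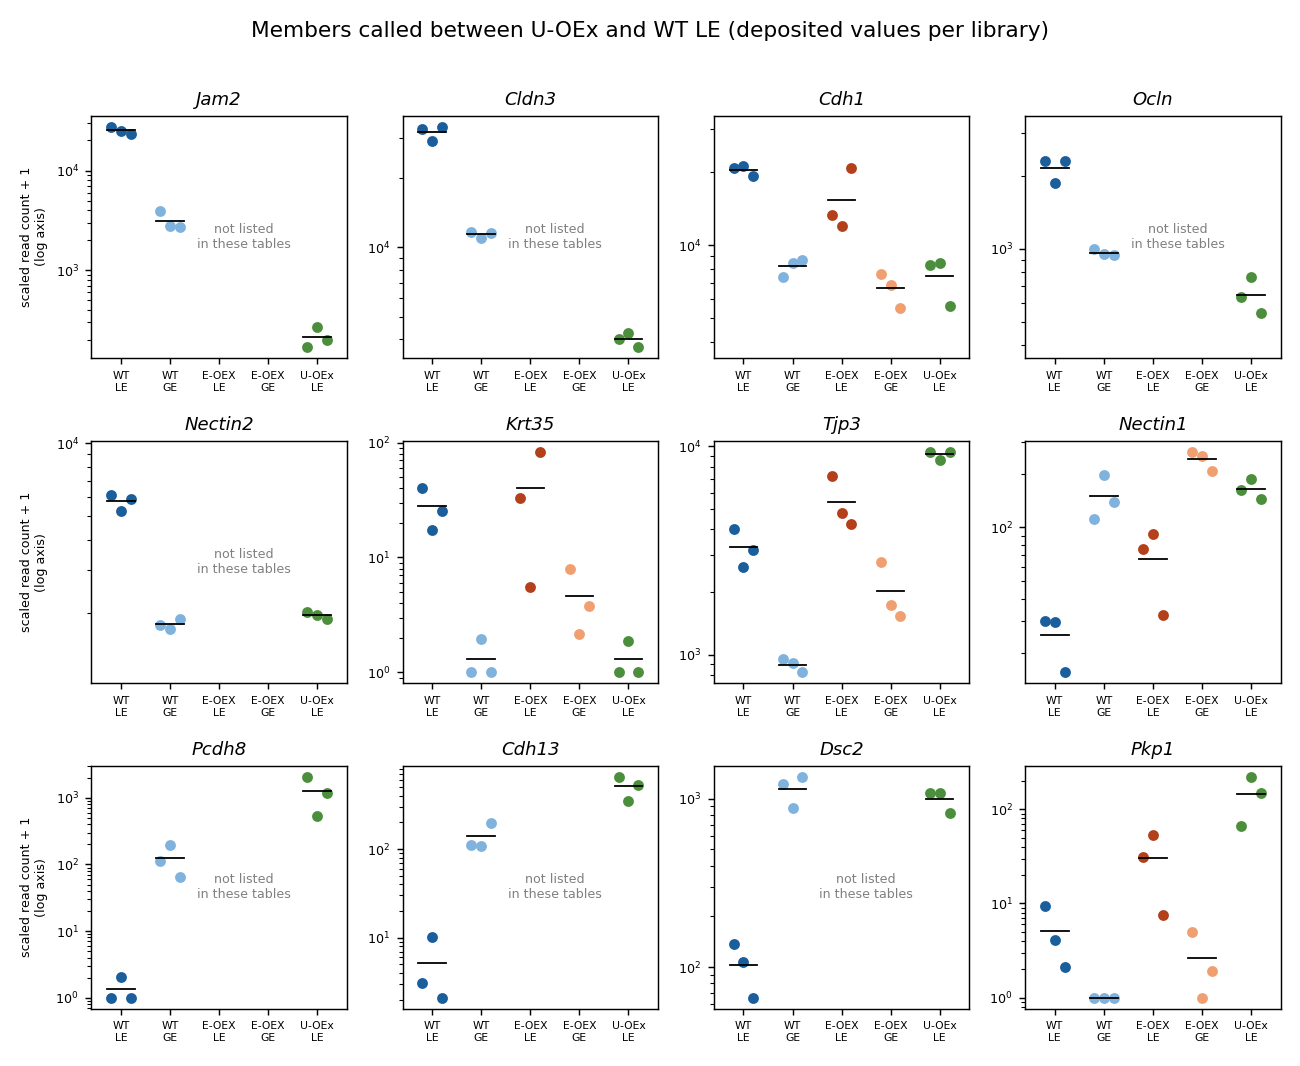
Scaled read count + 1 (log axis) of 12 members in the 15 libraries, 3 points per group with a line at the mean. Jam2, Cldn3, Cdh1, Ocln, Nectin2 and Krt35 lie lower in U-OEx LE than in wild-type LE, and Tjp3, Nectin1, Pcdh8, Cdh13, Dsc2 and Pkp1 lie higher; 7 of the 12 are not listed in the E-OEX tables.

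At the adherens junction, E-cadherin (Cdh1, chr8:106603351-106670246) had 20699, 21139 and 19334 in wild-type LE and 7356, 8448 and 8722 in wild-type GE. In E-OEX LE it had 13287, 12026 and 20851, in E-OEX GE 7637, 6875 and 5522, and in U-OEx LE 8293, 8430 and 5623. U-OEx LE thus overlapped with the range of the glands and lay under wild-type LE, a log2 change of -1.50 (SE 0.23, limma adjusted p = 0.000788). In E-OEX GE the change was -0.77 with a limma adjusted p of 0.051, and in E-OEX LE it was -0.62 with a limma adjusted p of 0.369. E-OEX LE replicate 3 lay within the wild-type LE range on the deposited scale and just under it after rescaling (19700 against 20131). Against E-OEX LE, U-OEx LE was at -1.16 with a limma adjusted p of 0.0561.

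The nectins, which recruit cadherins to new contacts, moved apart in U-OEx LE. Nectin2 had 6130, 5276 and 5909 in wild-type LE and 2012, 1955 and 1885 in U-OEx LE, and it fell by 1.58 on the log2 scale (limma adjusted p = 0.000334). Nectin1 had 29.0, 28.7 and 14.5 and then 160, 185 and 144, a rise of 2.74 (limma adjusted p = 0.000764). Both sets of values were separate.

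Cdh13 and Cdh4 showed wide differences. The former (chr8:118283733-119324921), a cadherin held by a lipid anchor, had 2.07, 9.22 and 1.12 in wild-type LE, 111, 108 and 196 in wild-type GE and 647, 351 and 527 in U-OEx LE. It rose by 6.92 in U-OEx LE (SE 0.62, limma adjusted p = 5.96e-05). Cdh4, known from retina and kidney, was at 504, 1167 and 608 in E-OEX LE, 172, 33.3 and 56.2 in E-OEX GE and 18.4, 101 and 21.1 in U-OEx LE, and was not listed for wild type. U-OEx LE was lower than E-OEX LE (log2 change -4.47, SE 0.69, limma adjusted p = 0.00739), and without U-OEx LE replicate 1 the limma adjusted p was 0.0543.

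The desmosomal Dsg3 differed between the 2 overexpression groups. It had 61.2, 8.17 and 8.63 in E-OEX LE, against 367, 151 and 189 in U-OEx LE and 187, 187 and 170 in wild-type LE. E-OEX LE thus lay below both other LE groups. The log2 fold change was -3.54 in E-OEX LE (SE 0.74, limma adjusted p = 0.0184) and 3.52 for U-OEx against E-OEX LE (SE 0.73, limma adjusted p = 0.018). Both calls depended on single libraries. The first did not pass without E-OEX LE replicate 2 or wild-type LE replicate 2 or 3, and the second not without U-OEx LE replicate 1 or 3 or E-OEX LE replicate 2 or 3.

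In U-OEx LE the plakophilin Pkp1 had 66.2, 219 and 150 against 8.29, 3.07 and 1.12 in wild-type LE, a rise of 4.90 (SE 0.71, limma adjusted p = 0.000643). E-OEX LE lay between them at 30.1, 52.7 and 6.48, and its change of 2.28 had a limma adjusted p of 0.161. The desmocollin Dsc2 rose in U-OEx LE from 136, 107 and 64.8 to 1075, 1071 and 822 (3.29, limma adjusted p = 0.000138), overlapping with its wild-type GE values of 1218, 878 and 1342. The hair desmoglein Dsg4 fell, on a single read in U-OEx LE (-2.66, limma adjusted p = 0.0335), and passed only in 1 of the 6 fits that left out a library.

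Of 11 keratins tested, 2 changed in E-OEX LE, where 10.7% of all genes passed, and 4 of 11 changed in E-OEX GE, where 23.5% did. Beside the GE changes, 5 of 7 glandular markers fell (Spink1, Cxcl15, Calca, Lif and Ttr), and their part in the keratins was not tested. Krt19 (chr11:100140810-100148665) had 10063, 10556 and 8487 in E-OEX GE, against wild-type GE values of 1997, 1887 and 1295. The groups did not overlap, and Krt19 rose by 2.04 on the log2 scale (SE 0.26, limma adjusted p = 0.0005). In LE it had 24918, 12378 and 17229 in wild type, 26535, 21432 and 31041 in E-OEX and 17898, 25708 and 16912 in U-OEx, and it passed in neither luminal comparison.

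Krt4 and Krt13, the keratin pair of wet stratified epithelia such as oesophagus and vagina, were both low in wild type. Krt4 (chr15:101918535-101924735) had 690, 661 and 404 in E-OEX GE, against wild-type GE values of 17.5, 33.2 and 18.2, a rise of 4.18 (SE 0.37, limma adjusted p = 0.000105). Krt13 (chr11:100117327-100121566), had 91.1, 36.8 and 16.9 in E-OEX GE, against wild-type GE values of 0.973, 3.79 and 0.865, a rise of 3.58 (SE 0.71, limma adjusted p = 0.00561). In LE, Krt13 rose from 23.8, 5.12 and 11.2 to 183, 104 and 164 in E-OEX (3.41, SE 0.69, limma adjusted p = 0.0161). Krt4 was uneven there, at 43.8, 38.1 and 0 in E-OEX LE. The Krt13 call in LE did not hold without E-OEX LE replicate 1 or 2 or wild-type LE replicate 3.

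Krt23 (chr11:99477974-99493137) fell in E-OEX GE, from 6897, 3301 and 5456 to 1104, 1642 and 1372 (-2.35, SE 0.31, limma adjusted p = 0.000724), a call that 1 fit over 4 groups did not make (limma adjusted p = 0.0849). Krt83 (chr15:101485130-101491512) had overlapping GE ranges on the deposited scale, and its change there was -0.99 with a limma adjusted p of 0.0736. In E-OEX LE it stood at 21.0, 43.6 and 5.40, against 2 reads in the 3 wild-type LE libraries. The ratio was 30.6 with a counting interval from 8.19 to 258, and the log2 fold change, which depends on the pseudocount, was 3.59 (SE 0.91, limma adjusted p = 0.0345). It passed in 1 of the 6 fits that left out a library. Of the 75-base stretches of the Krt83 transcript, 12.5% also occur in other genes, so reads can be split with Krt81, Krt86 and Krt87.

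Krt12 and Krt35, keratins of the wild-type lumen, were nearly without reads in U-OEx LE. Krt12 (chr11:99415666-99422259) had 1.84, 0 and 0.960 there and 75.6, 45.1 and 22.4 in wild-type LE, a ratio of 53.2 with a counting interval from 17.8 to 261 (log2 fold change -4.64, SE 0.68, limma adjusted p = 0.000665). Krt35 (chr11:100092193-100096241), a hair-type keratin, had 1 read in U-OEx LE against 39.4, 16.4 and 24.6 in wild-type LE, a ratio of 88.5 with a counting interval from 15.4 to 3540 (-4.44, SE 0.59, limma adjusted p = 0.000427). Both were also lower in U-OEx LE than in E-OEX LE. Krt12 had 15.5, 13.6 and 3.24 in E-OEX LE (-2.63, SE 0.75, limma adjusted p = 0.047), and Krt35 had 31.9, 4.54 and 82.0 (-4.45, SE 0.94, limma adjusted p = 0.0193). Neither of these last 2 calls held without U-OEx LE replicate 1 or 3, and Krt12 passed in 1 of 6 fits that left out a library. The Krt12 call was also lost with a pseudocount of 0.1, with no filter on low values, on the deposited scale, in edgeR (adjusted p = 0.058) and with a block for the replicate number, and the Krt35 call with no filter (limma adjusted p = 0.0585). Krt10 (-1.67), Krt79 (-2.13) and Krt80 (-1.28) fell and Krt87 (1.75) rose in U-OEx LE, of 15 keratins tested. With a library left out, Krt79 passed in 2 of 6 fits and Krt80 in 1.

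**Figure D5:**
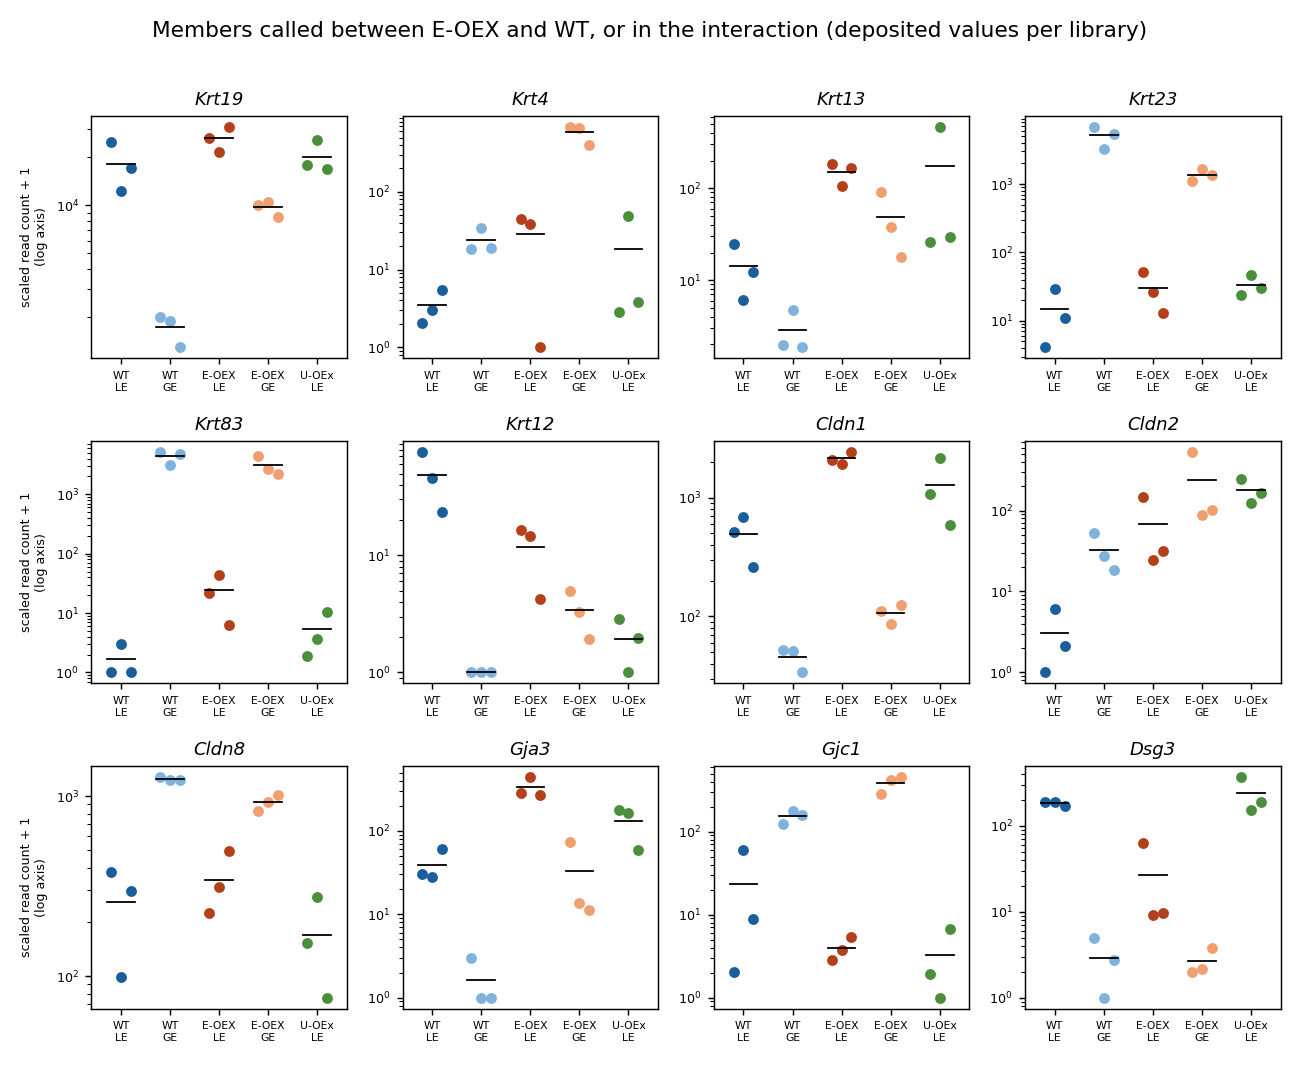
Scaled read count + 1 (log axis) of 12 members in the 15 libraries, 3 points per group with a line at the mean. Against wild-type GE, the E-OEX GE points of Krt19, Krt4, Krt13 and Gja3 lie higher and those of Krt23 lower, and Dsg3 is low in E-OEX LE.

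The difference between GE and LE itself changed with genotype for 4 of 44 members, all keratins, 2 with a positive and 2 with a negative interaction in limma. Of all genes 10.7% passed this test (5.83% positive, 4.91% negative). Krt19 had an interaction of 1.93 (SE 0.42, limma adjusted p = 0.0118) and Krt12 of 3.78 (SE 0.88, limma adjusted p = 0.015), so their luminal excess was smaller in E-OEX. Krt83 had -4.19 (SE 0.93, limma adjusted p = 0.0129) and Krt23 -3.11 (SE 0.93, limma adjusted p = 0.048), so their glandular excess was smaller in E-OEX. The value for Krt12 depends on the pseudocount because wild-type GE had no read, and it was 6.69 with a pseudocount of 0.1. Krt23 did not pass in edgeR (adjusted p = 0.0635) or with the reads rescaled together (limma adjusted p = 0.068), nor with a pseudocount of 0.1 or a block for the replicate number, and it was lost in 10 of 12 fits that left out a library. On that rescaled setting the median of all genes was 0.07 in place of 0.33, and 43.9% of all calls were positive in place of 54.3%.

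Of the connexins, Gja3 (chr14:57034460-57058100), best known from the lens, was higher in each overexpression group. It had 286, 441 and 271 in E-OEX LE and 177, 161 and 57.6 in U-OEx LE, against 29.0, 26.6 and 59.2 in wild-type LE. In GE it had 1.95, 0 and 0 in wild type and 73.1, 12.6 and 10.3 in E-OEX. It rose by 2.97 in E-OEX LE (SE 0.55, limma adjusted p = 0.0121) and by 1.67 in U-OEx LE (SE 0.54, limma adjusted p = 0.0283). In GE the ratio was 37.7, with a counting interval from 10.2 to 316 over 2 wild-type reads (log2 fold change 3.72, SE 0.86, limma adjusted p = 0.0128). The E-OEX LE call did not pass without E-OEX LE replicate 2, and U-OEx LE overlapped with wild-type LE and did not pass without U-OEx LE replicate 1 or 2 or wild-type LE replicate 1 or 2.

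Gjc1 rose in E-OEX GE from 123, 174 and 156 to 286, 420 and 453 (0.87, SE 0.26, limma adjusted p = 0.0373). The smooth muscle and pericyte markers rose in the same comparison, 5 of 8 tested (Acta2, Actg2, Cnn1, Myh11 and Mylk), and their part in Gjc1 was not tested. Gjc1 passed in 1 of the 6 fits that left out a library and not in 1 fit over 4 groups. In U-OEx LE, Gja1, the most widespread connexin, had 621, 458 and 796 against 7.25, 320 and 79.4 in wild-type LE. It rose by 3.34 (SE 1.09, limma adjusted p = 0.0296), with wild-type LE replicate 2 the nearest, but not in edgeR, nor without wild-type LE replicate 3 or any 1 of the U-OEx libraries. Gjb2 rose (1.19, limma adjusted p = 0.0101) and the vascular connexin Gja4 fell (-2.49, limma adjusted p = 0.0422), the latter in 1 of 6 fits with a library left out and not in edgeR or DESeq2.

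Between E-OEX and wild type the protocadherins nearest to the threshold were Pcdh11x in LE (2.80, limma adjusted p = 0.0624) and Pcdh18 in GE (0.92, limma adjusted p = 0.0623). In U-OEx LE, 2 of 9 rose, where 29.1% of all genes did. Pcdh8 (chr14:79766775-79771312), a protocadherin of the embryo and brain, had a single read in wild-type LE, 111, 196 and 64.9 in wild-type GE and 2061, 543 and 1195 in U-OEx LE. Every U-OEx library lay above every wild-type library of either epithelium. The ratio to wild-type LE was 3520, with a counting interval from 631.5 to 139100 (log2 fold change 9.78, SE 0.59, limma adjusted p = 1.21e-05). Pcdh11x rose from 10.4, 3.07 and 1.12 to 15.6, 18.7 and 17.3 (1.95, limma adjusted p = 0.0433), a call that edgeR and DESeq2 did not make. The clustered beta and gamma protocadherins, 17 of the members, were low: over the 16 listed for E-OEX, values ran from 0 to 46.3 in E-OEX LE and from 5.75 to 205 in E-OEX GE. The gamma genes share exons, so their reads can be split.

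Among members that passed no test, Cldn4, an apical claudin of many epithelia, had 2631, 1901 and 3229 in E-OEX LE, 3962, 8973 and 4799 in E-OEX GE and 2160, 2151 and 2028 in U-OEx LE, and was not listed for wild type. Cldn10, a paracellular ion channel claudin, had 745, 1208 and 1551 in E-OEX LE, against 4250, 4379 and 3619 in E-OEX GE and 3169, 2121 and 2843 in wild-type GE. Its change in E-OEX LE was 2.41 with a limma adjusted p of 0.143, beside the uneven wild-type LE values given above.

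Leukocyte markers and some glandular and endothelial markers were higher in U-OEx LE, beside the member changes in that comparison. The sum of 4 leukocyte markers listed in both tables was 782 to 1437 in wild-type LE and 3189 to 5490 in U-OEx LE, and Adgre1, Cd74 and Lyz2 rose in limma. Of 7 glandular markers tested, 4 rose, namely Foxa2 (5.66), Lif (3.91), Cxcl15 (3.80) and Wfdc3 (2.81), and Spink1 fell. The sum of 9 endothelial markers was 243 to 408 in wild-type LE and 541 to 683 in U-OEx LE, and Flt1 (2.47), Tek (3.15) and Pecam1 (1.82) rose. Over the 7 markers listed in all tables, without Flt1 and Tek, the sums overlapped. They were 194 to 323 in wild-type LE and 178 to 297 in U-OEx LE. The median log2 fold change of the 10 endothelial markers tested was -0.03. Pcdh8, Cdh13, Dsc2, Gja1, Nectin1, Cldn2, Krt87 and Pcdh11x rose in U-OEx LE and were higher in wild-type GE than in wild-type LE. The other members that rose, Pkp1, Gjb2, Tjp3 and Gja3, were higher in wild-type LE. Both contrasts use the same wild-type LE libraries, so a member low in them tends to be higher in both. Of all genes listed for wild type, 57.0% were higher in GE. The share among all genes that rose in U-OEx LE was not counted. On the deposited scale, Pcdh8 and Cdh13 were higher in U-OEx LE than in wild-type GE itself. Whether other cells contribute to the members was not tested. The stromal sum in U-OEx LE (281 to 1031) lay within the wild-type LE range, and 1 of 9 stromal markers tested (Hoxa11) fell. Of 7 smooth muscle and pericyte markers tested, 2 fell (Cnn1 and Des) and 0 rose. Of 4 mesothelial markers tested, 0 passed. Of 11 epithelial identity and epithelial-mesenchymal genes tested, 2 rose and 3 fell, where 56.9% of all genes passed. The epithelial transcription factor Elf3 rose (1.33, limma adjusted p = 0.000501), as did Zeb2. Epcam fell (-0.74, limma adjusted p = 0.0334), as did Ovol1 and Twist2.

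Partners of these proteins were counted from lists chosen with earlier results known. In U-OEx LE, 6 of 7 adherens junction partners tested passed, 3 higher and 3 lower, where 56.9% of all genes passed. Ptprm, a receptor phosphatase at cell contacts, rose by 3.87, and the adhesion molecules Cadm1 (1.73) and Cadm4 (1.30) also rose. The catenin relatives Arvcf (-3.09) and Ctnnal1 (-0.64) and the actin-linked Zyx (-1.79) fell. Ptprm also rose in E-OEX LE (3.43, limma adjusted p = 0.00644) and E-OEX GE (1.14, limma adjusted p = 0.0238).

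Of 10 desmosome, hemidesmosome and filament partners tested in U-OEx LE, 2 rose and 4 fell, a share near the 56.9% of all genes. Itgb4, the integrin of hemidesmosomes, fell by 1.88 on the log2 scale, its linker Dst by 1.63 and the periplakin gene Ppl by 1.63, and the filament gene Des fell as well (-2.83). Des is also one of the smooth muscle and pericyte markers. It had 5.18, 125 and 40.2 in wild-type LE, highest in replicate 2, and the part of other cells in its fall was not tested. Lad1 (1.51) and Sfn (2.09) rose. Dst also fell in E-OEX GE (-0.82, limma adjusted p = 0.0243), where the cingulin relative Cgnl1 fell too (-1.29, limma adjusted p = 0.00264). Of 6 tight junction partners tested in U-OEx LE, the polarity gene Pard6g rose (3.54) and Tmem47 fell (-2.66).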

How the data were processed

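Messenger RNA was profiled in 15 libraries, 3 in each of 5 groups taken from the sample titles. Per the labels' protocols, library construction used NEBNext Ultra RNA. The authors' deposited values are a signal per gene, namely read counts multiplied by 1 factor per library. This was read from the values: 100% were within 0.01 of a whole read in every library. The builds GRCm38 and mm10 appear in the submitters' processing notes. The aligner, counter, annotation, scaling and gene selection are not given in the sources used here. Gene positions are from GENCODE, and shared sequence was counted in stretches of 75 bases of its transcripts.

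Members and lists were chosen with earlier results of these data known. Genotypes were compared with limma 3.58.1 (R 4.3.3, eBayes with a trend) on log2(value + 1) for genes with a mean of at least 1, with Benjamini-Hochberg adjustment over all genes tested and a threshold of 0.05. Reads of shared genes were rescaled together by TMM (edgeR 4.0.16), because the tables may have been scaled separately. The interaction used the deposited scale. Log2 fold changes understate changes of low genes. A group with no read was set at 3 reads per library, and ratios over 1 to 3 reads have exact 95% counting intervals. Alternatives were a pseudocount of 0.1, no filter, a mean of at least 10, other scalings, edgeR, DESeq2 1.42.0 on recovered reads, the replicate number as a block, a joint fit and leaving out each library. Members given library by library are Cdh1, Krt19, Krt83, Jam2, up to 5 rises and 5 falls per test with non-overlapping groups, and the 5 widest differences between epithelia in each direction. Others, such as Tjp3, Nectin1, Nectin2 and Dsc2, were added after their values were seen, and some that the rule names are not reported here. The fits were tested on simulated data. No 2 libraries of a group agreed within sampling noise.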

Additional observations from a re-analysis of the deposited data

Results flagged for a closer look

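The effect of E-OEX differed between the luminal and the glandular epithelium for 4 keratins by the interaction test in limma. The interaction was 3.78 for Krt12, 1.93 for Krt19, -3.11 for Krt23 and -4.19 for Krt83, each as the log2 difference of GE minus LE in E-OEX against that in wild type. The Krt23 call was lost in 4 of 7 other settings and in 10 of 12 fits that left out a library, while those of Krt12, Krt19 and Krt83 were kept in all of them.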

How the results depend on the processing

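Of 702 values of the 48 called results under the alternatives and with a library left out, 588 kept their call and direction, 114 lost the call and 0 reversed. Calls that held in every fit were Krt19, Krt13, Gja3 and Krt4 in E-OEX GE, Krt19, Krt12 and Krt83 in the interaction and 19 of 27 in U-OEx LE. None of the 6 in E-OEX LE and none of the 4 between U-OEx and E-OEX LE did so. With no filter on low values, 2 members passed in E-OEX LE and 1 between U-OEx and E-OEX LE. DESeq2 called 11 in E-OEX GE, 12 between U-OEx and E-OEX LE and 7 in the interaction. In E-OEX GE the deposited scale gave 11, and 1 fit over 4 groups gave 4. The cause of these shifts was not tested. With a library left out, 0 to 7 passed in E-OEX LE, 5 to 10 in E-OEX GE, 20 to 29 in U-OEx LE, 0 to 8 between U-OEx and E-OEX LE and 3 to 7 in the interaction. Between U-OEx and E-OEX LE, 0 passed in limma without U-OEx LE replicate 1 (12 at an unadjusted p under 0.05), 1 without U-OEx LE replicate 3, 7 without U-OEx LE replicate 2 and 8 without E-OEX LE replicate 1. The interaction gave 7 without wild-type LE replicate 1. The median of all genes between U-OEx and E-OEX LE was 0.06, and 0.19 on the deposited scale.

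When a block for the replicate number was fitted, 7, 9, 25, 4 and 4 members passed in the comparisons of E-OEX LE, E-OEX GE, U-OEx LE, U-OEx against E-OEX LE and the interaction. Deviations of same-numbered libraries had correlations from -0.337 to 0.236 over the comparisons. Between genotypes, of 6 libraries 2 to 4 correlated best with their own number. For LE and GE of the same genotype and number the correlations ran from -0.171 to 0.168. With 3 libraries per group, these values cannot show whether the numbers are a pairing.

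Depth limits the low members: a value under about 10 scaled reads rests on few reads, and the full depth of the wild-type and E-OEX libraries is unknown.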

Other observations

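Genes of the same families that were listed only in the U-OEx tables number 85, and 41 of them had a mean of at least 10 scaled reads. They include the simple-epithelium keratins Krt8 (13407 ± 2248, SD, n = 3), Krt18 (6840 ± 1155) and Krt7 (6434 ± 801), the desmosomal plaque gene Dsp (4225 ± 1044), the tight junction scaffold Tjp1 (2289 ± 227) and the adhesion molecule F11r (2045 ± 167). These were not compared with wild type.

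U-OEx LE replicate 2 stood apart in some keratins of stratified epithelium, but not in all of them. It had 1154 scaled reads of Krt5 where the other U-OEx libraries had 65.2 and 75.9, and 467 of Krt13 where they had 24.8 and 28.8. For Krt4 it had 48.0 beside 1.84 and 2.88. Krt14, Krt15 and Krt17 were highest there too, Krt14 at 172 beside 83.6 and 89.3. In contrast, Krt6a and Krt6b were lowest there, Krt6b at 21.3 beside 40.4 and 34.6. Krt1 and Krt10 lay near another U-OEx library. The cadherin Cdh15, listed only in the U-OEx tables, had 328 there and 17.5 and 29.8 in the others.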
